A study of Mus musculus with 12 samples.

Results

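Gene expression was measured by RNA sequencing of mouse skin biopsies in 12 libraries, and the comparison described here used 6 of them: the 3 libraries with the immunization label ticks 3x and the 3 with the label ticks 2x. They were chosen by that label alone. Both groups were bitten skin taken 4 days after the bite, and the study asks how skin responds to repeated infestation. The remaining libraries, which give levels for context only, were from naive skin (n = 2, labelled as not bitten), first exposure (n = 3) and a mouse labelled saliva immune (n = 1). No source used here gives the strain, sex, age, biopsy position or tick species. Whether the sampled bite is counted in 2x and 3x is not stated, nor whether the libraries of a group are separate animals. The p-values therefore measure the spread between libraries, which may be technical. Ticks 3x, ticks 2x and naive share a series of sample titles, while first exposure and saliva immune are in another.

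Tick saliva holds anticoagulants and inhibitors of inflammation that let the parasite feed for days. In animals that have met ticks before, antibody, mast cells, basophils, eosinophils and T cells at the bite can shorten feeding, an acquired resistance that is strong in guinea pigs and weak or absent in many laboratory mice. Fresh bites also draw neutrophils and monocytes through chemokines made by keratinocytes, fibroblasts and resident immune cells. Skin further carries a stable record of its place on the body, since its fibroblasts keep the Hox genes of the embryonic position from which they came.

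The sequenced depth of the 6 libraries was estimated at 16.1 M to 21.4 M reads, so 3 reads correspond to 0.14 to 0.186 CPM (reads of a gene per M, or mega, reads of its library). This floor covers counting error only. Keratinocyte and dermal genes were high throughout. For example, Krt14, a keratin of basal epidermis, was at 1285 to 2444 CPM in ticks 3x and 1009 to 3264 CPM in ticks 2x. The biopsies differed in what else they held, within both groups. The mean log2(CPM + 1) of the hair shaft list was 5.07, 6.85 and 0.51 in ticks 3x replicates 1 to 3, and 9.12, 2.48 and 0.45 in ticks 2x replicates 1 to 3. That of the skeletal muscle list was 6.37, 7.04 and 9.03 in ticks 3x, and 5.73, 5.71 and 9.09 in ticks 2x. The groups overlapped in both lists. Along the first principal component, with 52.2% of the variance, the libraries ran from ticks 2x replicate 1 to ticks 3x replicate 3, not between the groups. The median correlation was 0.938 over the 6 pairs of libraries of the same group and 0.948 over the 9 pairs from different groups. In bulk tissue, fewer cells of a type and less RNA per cell cannot be told apart.

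No gene passed the test between ticks 3x and ticks 2x. Of 16198 genes that reached 1 CPM in 2 or more of these libraries, limma called 0 higher and 0 lower at a Benjamini-Hochberg adjusted p below 0.05, which is 0% in each direction. At an unadjusted p under 0.05 there were 752 genes, 518 higher and 234 lower, where 809.9 would make up 5% of those tested. The smallest adjusted p was 0.70, for Nnat, and each of the other genes named here had 0.906 or more. The values that follow are therefore levels and differences of these libraries, and no gene is said to have changed. As a second description, genes were counted whose 3 ticks 3x libraries all lay above, or all below, the 3 ticks 2x libraries. There were 1190 such genes higher (7.35% of those tested) and 730 lower (4.51%). The higher share was 62.0% with CPM as deposited. It was 46.7% after median-of-ratios scaling (959 higher, 1094 lower) and 52.0% after quantile normalization (1068 higher, 987 lower). The balance of higher against lower genes thus turned with the scaling. The median log2 fold change over all tested genes was 0.03, and 55.1% lay above 0.

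Hox genes, the first group described here, encode the homeobox transcription factors that specify position along the body and limbs in the embryo. Paralog numbers 1 to 13 follow the order from head to tail, and the clusters a, b, c and d lie on chromosomes 6, 11, 15 and 2. In the Hox and limb position list, 14 of 18 genes were tested and 0 passed the test in either direction. All 14 lay above 0, with a median log2 fold change of 1.16 (0.96 to 1.25 when single libraries were left out), and 8 were higher without overlap, against 7.35% of all genes. None was lower without overlap.

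Hoxb6 (chr11:96292814-96301569) was at 6.86, 5.94 and 5.88 CPM in ticks 3x, against 1.23, 1.74 and 0.31 CPM in ticks 2x. Its log2 fold change on the log2(CPM + 1) scale, which understates differences of low genes, was 1.85 (SE 0.30). Every ticks 3x library lay above every ticks 2x library, by more than the spread within either group. Hoxb8, of the same cluster, was at 5.11, 3.69 and 3.69 CPM in ticks 3x, against 0.885, 1.16 and 0.248 CPM in ticks 2x. It was named, like Hoxb4, Hoxb9, Hoxa7, Hoxa9, Hoxc4 and Hoxc6, after its values were seen. Hoxb7 was at 5.84, 5.66 and 4.03 CPM in ticks 3x, against 1.62, 2.32 and 0.559 CPM in ticks 2x. In these cluster b genes ticks 2x replicate 3 was lowest each time. Hoxb9 was at 1.36, 1.12 and 1.79 CPM in ticks 3x, and at 0.541, 0.211 and 0.0622 CPM in ticks 2x, the last of these under the level of 3 reads. Hoxb4, more abundant, stood closer, at 17.7, 15.2 and 14.4 CPM in ticks 3x and 11.8, 11.1 and 9.99 CPM in ticks 2x (log2 fold change 0.49, SE 0.16).

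Cluster a and c members had the same order of groups, but in several of them ticks 3x replicate 3 stood above the other libraries. Hoxa5 was at 9.25, 8.55 and 17.5 CPM in ticks 3x, against 6.88, 4.17 and 2.11 CPM in ticks 2x (log2 fold change 1.28, SE 0.42). Hoxa7 was at 4.33, 4.35 and 7.32 CPM in ticks 3x, against 1.72, 1.69 and 1.80 CPM in ticks 2x. Hoxa9 was at 1.02, 0.888 and 3.54 CPM in ticks 3x. In ticks 2x it was listed at 0 in replicate 1 and was at 0.317 and 0.124 CPM in the others. Mira, a noncoding RNA gene between Hoxa6 and Hoxa7 (chr6:52214491-52215288), was at 4.77, 3.88 and 10.1 CPM in ticks 3x and 1.62, 2.69 and 0.745 CPM in ticks 2x (log2 fold change 1.40, SE 0.41). No source used here says whether reads were counted by strand, and the genes of a Hox cluster lie close to antisense and overlapping neighbours, so reads of adjacent genes may not be separated. In cluster c, Hoxc4 was at 15.4, 11.8 and 12.6 CPM in ticks 3x, against 4.97, 6.92 and 4.66 CPM in ticks 2x (log2 fold change 1.14, SE 0.21). Hoxc6 was at 19.5, 16.9 and 22.5 CPM in ticks 3x and 13.03, 6.92 and 5.03 CPM in ticks 2x. Hoxc8 was at 9.05, 8.55 and 19.9 CPM in ticks 3x and 8.31, 2.91 and 1.74 CPM in ticks 2x (log2 fold change 1.44, SE 0.53). Its gap between the groups was narrow, since ticks 2x replicate 1 nearly reached ticks 3x replicate 2.

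All Hox symbols in the table were then looked up, after the values of the list had been seen. There were 30, of which 25 were tested, 24 lay above 0 and 13 were higher without overlap, against 7.35% of all genes. These 13 all belonged to paralog groups 4 to 9, where they made up 13 of 17 tested genes, with a median log2 fold change of 1.14 and all 17 above 0. Groups 1 to 3, expressed furthest towards the head in the embryo, gave 0 of 6, with a median of 0.23. Groups 10 to 13 gave 0 of 2, and Hoxa10, also of these groups, was too low to be tested. Hoxa10 was at 0.681, 0.468 and 3.04 CPM in ticks 3x. In ticks 2x it was listed at 0 in replicates 1 and 3 and was at 0.159 CPM in replicate 2. Without a filter on CPM, 15 of 30 Hox genes were higher without overlap, against 6.77% of all genes. The limit to groups 4 to 9 thus held among the tested genes only. By cluster the count among tested genes was 3 of 7 for a, 6 of 8 for b, 4 of 5 for c and 0 of 5 for d. Hoxd8 showed the spread of cluster d, with 19.2, 25.1 and 37.6 CPM in ticks 3x and 15.9, 14.9 and 41.4 CPM in ticks 2x. Hoxc13, which is also a regulator of hair keratins, was at 18.0, 38.5 and 6.23 CPM in ticks 3x and 186, 5.12 and 5.21 CPM in ticks 2x, highest in the library richest in hair shaft genes. Whether these groups or clusters differed from each other was not tested. The 13 became 11 with median-of-ratios scaling, against 5.93% of all genes, and 10 with quantile normalization, against 6.59%. They became between 12 and 17 when any single library was left out, where 9.37% to 18.7% of all tested genes were higher without overlap. The number above 0 was 20 of 25 without ticks 2x replicate 1. It was 19 of 24 without both that library and ticks 3x replicate 3.

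**Figure D1:**
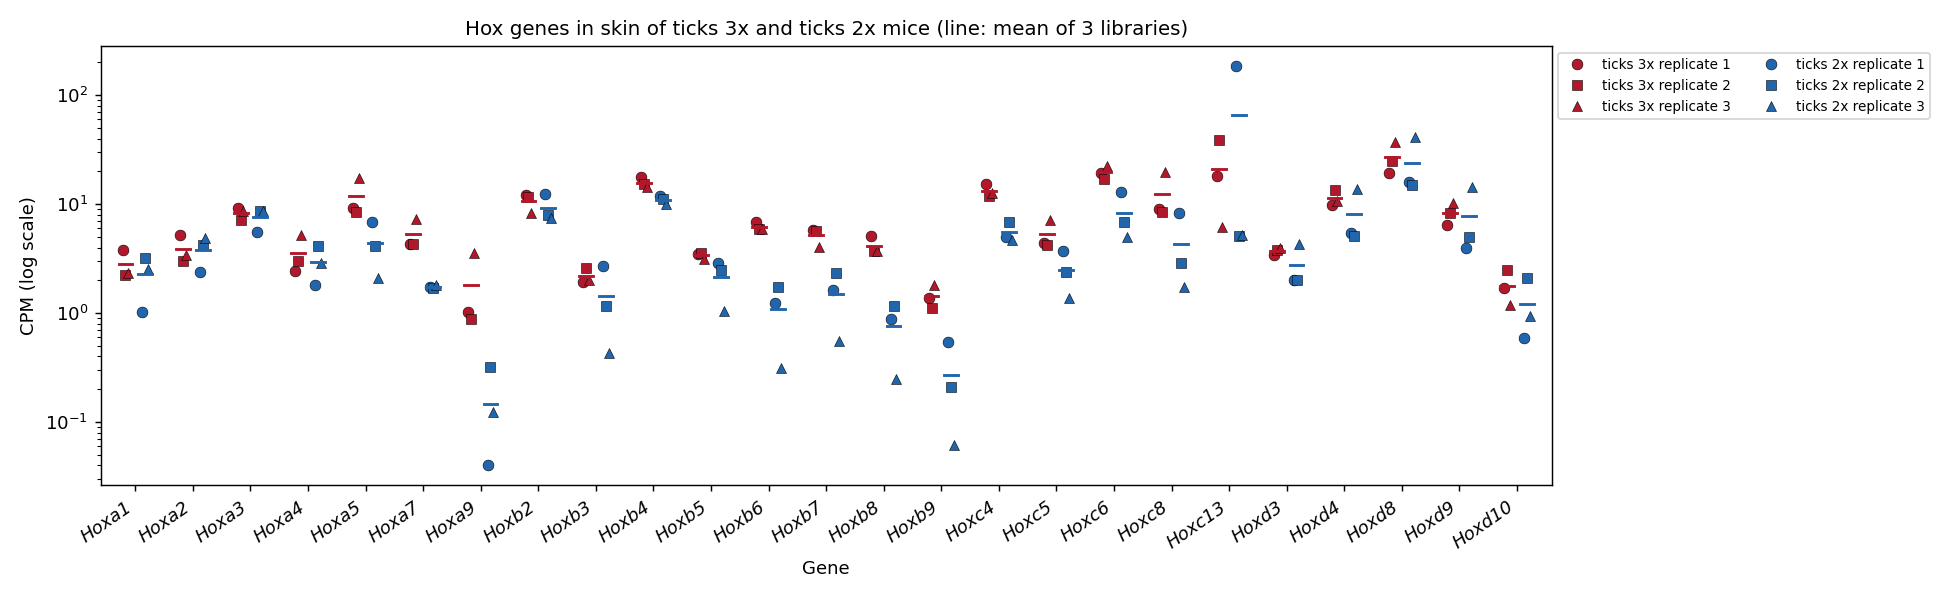
CPM on a log scale for the 25 tested Hox genes, by cluster and number, with 1 point per library, ticks 3x (red) left of ticks 2x (blue), and a line at the mean of 3 libraries. Values under 0.04 CPM are drawn at 0.04. In Hoxb6, Hoxb7, Hoxb8 and Hoxc4 the red points lie above the blue, while in Hoxd8, Hoxd9 and Hoxa3 they mix.

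Levels in the other libraries place these values. Naive skin had 5.78 and 4.47 CPM of Hoxb6, near ticks 3x. First exposure had 13.7, 17.9 and 2.98 CPM of the same gene, so its libraries spanned a wider range than either repeat group. Hoxc8 was at 33.8 and 17.6 CPM in naive skin and at 16.3, 22.3 and 2.03 CPM in first exposure. Hox levels thus also differed between libraries of 1 group.

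The gene with the smallest adjusted p was Nnat, which encodes neuronatin, an imprinted membrane protein of the endoplasmic reticulum (chr2:157560078-157562525). It was at 45.8, 62.2 and 47.4 CPM in ticks 3x, against 15.3, 12.3 and 15.4 CPM in ticks 2x. All 3 libraries of ticks 3x lay far above those of ticks 2x, with means of 51.8 ± 9.05 and 14.3 ± 1.80 CPM (SD, n = 3 each). The log2 fold change was 1.78 (SE 0.18), limma's adjusted p was 0.70, and the fold change lay between 1.64 and 1.86 when any single library was left out. Naive skin had 4.97 and 6.39 CPM. The other imprinted growth genes did not follow it as a group: of 17 tested, 14 lay above 0 with a median of 0.13, and 0 passed the test. Besides Nnat (higher, as were 7.35% of all genes), only Cdkn1c, an inhibitor of cyclin-dependent kinases, was without overlap. Cdkn1c was lower, as were 4.51% of all genes. It was at 10.9, 11.5 and 15.5 CPM in ticks 3x and 23.7, 16.6 and 15.5 CPM in ticks 2x, with the nearest libraries almost equal.

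A list of steroid, prolactin and oxytocin receptors, together with genes called against naive skin in this series, was examined next. Part of it was chosen on these libraries, so its direction is not independent evidence. Of 13 genes, 10 were tested, 0 passed the test, all 10 lay above 0 (median log2 fold change 0.53), and 7 were higher without overlap, against 7.35% of all genes. Nnat, described above, also belongs to this list and is among these 7. Pgr, the progesterone receptor (chr9:8898900-8968611), was at 10.9, 12.2 and 2.09 CPM in ticks 3x, against 0.344, 0.476 and 0.124 CPM in ticks 2x. The ticks 2x libraries were close to the level of 3 reads. Its log2 fold change was 2.59 (SE 0.57) and became 4.11 with a pseudocount of 0.1 in place of 1. Naive skin was higher than both, at 42.4 and 25.1 CPM. Oxtr, the oxytocin receptor, was at 19.8, 16.6 and 9.01 CPM in ticks 3x and 7.77, 4.86 and 8.81 CPM in ticks 2x (log2 fold change 0.95, SE 0.34). The groups nearly touched, and naive skin had 81.4 and 99.9 CPM.

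Smaller but even differences were seen in other genes of the list. Esr1, the estrogen receptor alpha, was at 28.2, 31.7 and 46.1 CPM in ticks 3x and 20.4, 22.9 and 22.6 CPM in ticks 2x (log2 fold change 0.63, SE 0.21). The protocadherin gene Pcdh18 was at 12.9, 11.3 and 11.7 CPM in ticks 3x and 8.65, 8.56 and 8.01 CPM in ticks 2x. In both genes ticks 2x held a tight range that lay under all of ticks 3x. Tmem132c, a transmembrane protein gene, was at 8.81, 8.32 and 9.51 CPM in ticks 3x and 6.34, 5.71 and 5.21 CPM in ticks 2x. Enpep, glutamyl aminopeptidase, overlapped, at 23.7, 31.3 and 33.4 CPM in ticks 3x and 22.8, 20.0 and 27.1 CPM in ticks 2x.

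Further genes with wide differences without overlap were Rxfp1, Akr1c14, Npy1r, Myrip and Serpinb6e. Rxfp1, the relaxin receptor (chr3:79641600-79737951), was at 17.2, 27.6 and 9.96 CPM in ticks 3x, against 0.737, 1.43 and 5.65 CPM in ticks 2x (log2 fold change 2.56, SE 0.58). Akr1c14, a 3-alpha-hydroxysteroid dehydrogenase, was at 85.6, 88.8 and 32.2 CPM in ticks 3x and 22.0, 16.6 and 10.4 CPM in ticks 2x (log2 fold change 1.94, SE 0.46). Npy1r, a receptor of neuropeptide Y, was at 14.4, 25.3 and 14.1 CPM in ticks 3x and 3.95, 5.70 and 8.31 CPM in ticks 2x. In Pgr, Rxfp1 and Akr1c14, ticks 3x replicate 3 was the lowest of its group. Naive skin had 26.8 and 42.2 CPM of Rxfp1 and 133 and 134 CPM of Akr1c14. Myrip, which links myosin to Rab27 on secretory granules, was at 4.43, 11.0 and 8.17 CPM in ticks 3x and 2.21, 1.48 and 4.16 CPM in ticks 2x. Serpinb6e, a serine protease inhibitor gene, was at 19.9, 1.82 and 5.93 CPM in ticks 3x and 1.03, 1.32 and 1.30 CPM in ticks 2x, and its fold change was set mostly by ticks 3x replicate 1: the log2 value of 1.74 (SE 0.69) ranged from 1.00 to 2.44 when single libraries were left out.

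**Figure D2:**
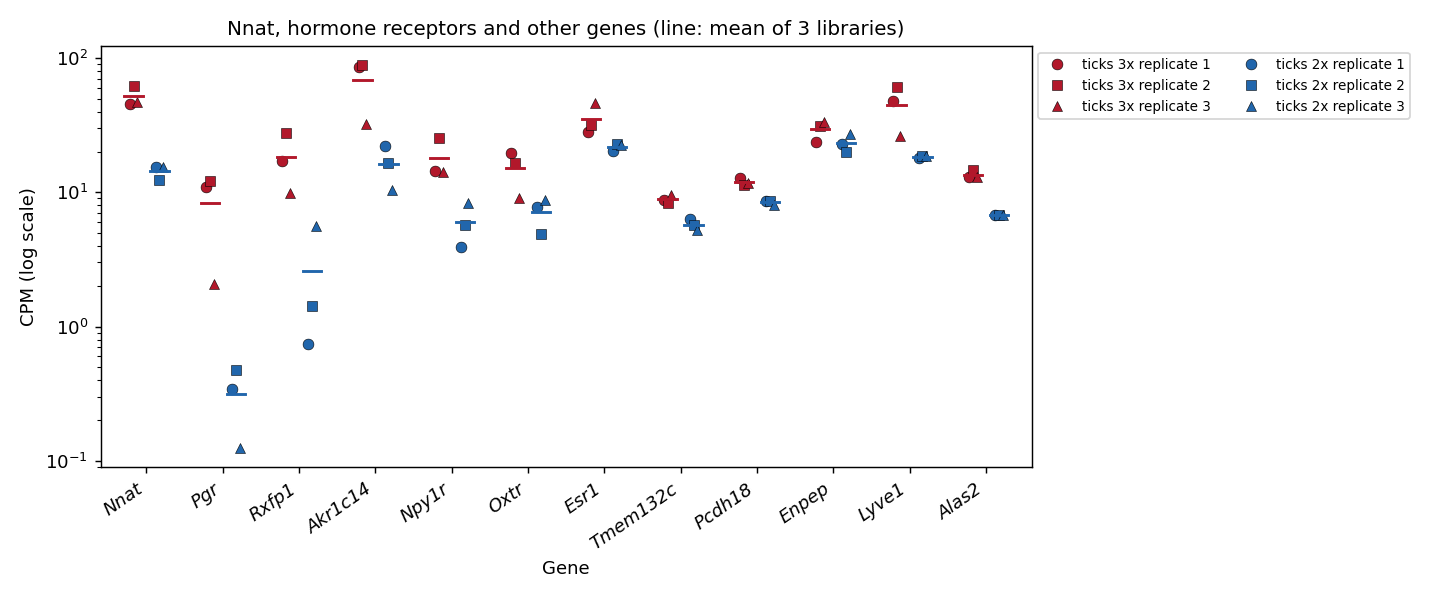
CPM on a log scale for Nnat, hormone receptors and other genes higher in ticks 3x, with 1 point per library, ticks 3x (red) left of ticks 2x (blue), and a line at the mean of 3 libraries. Apart from Enpep, where the points mix, red points lie above blue ones in each gene, narrowly so in Oxtr.

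Lower in ticks 3x were genes that bring in and mark neutrophils, but with wide spread inside both groups. Of 16 neutrophil-recruiting cytokines, 10 were tested, 0 passed the test, 8 lay below 0 and the median log2 fold change was -1.62. Cxcl1 alone was lower without overlap, against 4.51% of all genes. Cxcl1, a ligand of Cxcr2 and a main neutrophil attractant (chr5:90891245-90893121), was at 8.95, 8.37 and 1.30 CPM in ticks 3x, against 10.2, 132 and 32.2 CPM in ticks 2x. Its log2 fold change was -2.62 (SE 1.00), and ticks 2x replicate 1 lay just above ticks 3x. Cxcl2, with the same receptor, overlapped, at 10.8, 23.7 and 0.15 CPM in ticks 3x and 7.47, 121 and 45.7 CPM in ticks 2x. Il1b, the inflammasome-processed cytokine interleukin 1 beta, was at 33.5, 47.7 and 3.49 CPM in ticks 3x and 19.1, 329 and 122 CPM in ticks 2x (log2 fold change -2.25, SE 1.28). The same order of libraries recurred in Il6, at 11.9, 20.3 and 0.548 CPM in ticks 3x and 2.85, 92.9 and 33.4 CPM in ticks 2x. Cxcl5 was at 6.62 and 12.4 CPM and listed at 0 in ticks 3x, and at 0.393, 203 and 49.2 CPM in ticks 2x. These 4 genes, Cxcl2, Il1b, Il6 and Cxcl5, were named after their values were seen.

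Ticks 2x replicates 2 and 3 were the high libraries of this list, ticks 2x replicate 1 was low, and ticks 3x replicate 3 was lowest. The list means of log2(CPM + 1) were 3.28, 3.48 and 1.18 in ticks 3x and 1.98, 5.90 and 4.52 in ticks 2x. Naive skin, at 1.91 and 2.56, lay within the range of ticks 3x, and first exposure was at 0.86, 0.71 and 1.87. Without ticks 2x replicate 1 the median was -3.14 and 8 of 10 members were lower without overlap, against 8.85% of all genes. The median was -0.73 over 8 members without ticks 2x replicate 2, -1.10 without ticks 3x replicate 3 and -2.39 without ticks 3x replicate 2. Ticks 2x replicate 1 was also the library with the most hair shaft RNA. The part of hair content in these differences was not tested. A fit with the hair shaft mean as covariate gave a median of -1.60. That covariate averaged nearly the same in both groups, so the fit could move the median only slightly, whatever hair contributed.

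Neutrophil genes had a weaker form of the same pattern. Of 18 genes, 15 were tested, 0 passed the test, 13 lay below 0 and the median was -0.85 (-0.53 without ticks 2x replicate 2). S100a9, a subunit of calprotectin that fills neutrophil cytoplasm, named after its values were seen, was at 35.7, 16.7 and 3.24 CPM in ticks 3x and 9.05, 273 and 81.0 CPM in ticks 2x. Mpo, the myeloperoxidase of azurophil granules, was the only member lower without overlap, against 4.51% of all genes, at 1.27, 0.795 and 1.10 CPM in ticks 3x and 1.47, 3.96 and 3.04 CPM in ticks 2x (log2 fold change -0.85, SE 0.30). The list means overlapped, at 3.14, 3.37 and 1.90 in ticks 3x and 2.52, 4.76 and 3.72 in ticks 2x. Naive skin had 2.71 and 2.85, and first exposure 2.26, 1.65 and 1.98. Without ticks 2x replicate 1, 9 of 14 members were lower without overlap, against 8.85% of all genes. Without ticks 2x replicate 2 it was 1 of 15, against 7.35%. Some listed genes are made by other cells as well, such as Mmp9, named after its values were seen, which was at 156, 235 and 21.4 CPM in ticks 3x and 12.2, 98.3 and 93.2 CPM in ticks 2x.

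Among the other genes lower without overlap, Ptx3 was high in ticks 2x replicates 2 and 3, Tnc was highest in ticks 2x replicate 2, and Slc7a11 was high in ticks 2x replicates 1 and 2. Ptx3, a soluble pattern recognition protein (chr3:66219887-66225806), was at 19.3, 16.2 and 8.07 CPM in ticks 3x, against 23.1, 145 and 101 CPM in ticks 2x (log2 fold change -2.27, SE 0.70). Tnc, the wound matrix protein tenascin C, was at 89.9, 113 and 6.33 CPM in ticks 3x and 126, 437 and 142 CPM in ticks 2x. Its log2 fold change of -2.24 (SE 1.11) was -0.97 without ticks 3x replicate 3. Slc7a11, the cystine transporter, was at 6.37, 7.35 and 0.498 CPM in ticks 3x and 30.5, 28.3 and 9.99 CPM in ticks 2x. More even were Serpinb6d and Gap43. Serpinb6d (chr13:33661405-33671585) was at 18.0, 7.06 and 9.26 CPM in ticks 3x, against 38.0, 41.0 and 58.1 CPM in ticks 2x (log2 fold change -1.98, SE 0.35), while its near copy Serpinb6e lay the other way, and counts of such copies are uncertain. Gap43, a growth cone protein of regrowing axons, was at 1.17, 1.82 and 0.598 CPM in ticks 3x and 4.33, 5.86 and 8.01 CPM in ticks 2x (log2 fold change -1.69, SE 0.30). Both genes kept the groups well apart.

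The remaining genes named by size were lower by 1.13 to 1.54 on the log2 scale. They were Steap1, a metalloreductase-like membrane protein, S1pr3, a receptor of sphingosine 1-phosphate, Arg2, the mitochondrial arginase, Fscn1, the actin-bundling fascin, Basp1, a membrane protein of growth cones, and Rps13. Steap1 was at 2.29, 2.85 and 0.399 CPM in ticks 3x and 6.44, 7.34 and 6.08 CPM in ticks 2x. Fscn1 was at 41.7, 62.3 and 14.0 CPM in ticks 3x and 81.3, 66.0 and 79.7 CPM in ticks 2x. S1pr3 was at 22.2, 33.2 and 5.83 CPM in ticks 3x and 34.9, 61.8 and 49.7 CPM in ticks 2x. Ticks 3x replicate 3 was lowest in all 6 of these genes. Rps13, a ribosomal protein gene with pseudogenes, was at 6.88, 8.31 and 2.88 CPM in ticks 3x and 12.5, 15.7 and 13.9 CPM in ticks 2x, levels far under those of most ribosomal genes, so its counts are uncertain. When single libraries were left out, the log2 fold change lay between -1.83 and -1.10 for Steap1, -1.95 and -0.78 for S1pr3, -1.48 and -0.72 for Arg2, -1.44 and -0.81 for Rps13, -1.59 and -0.56 for Fscn1 and -1.40 and -0.67 for Basp1. The value nearest to 0 was each time the one without ticks 3x replicate 3.

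**Figure D3:**
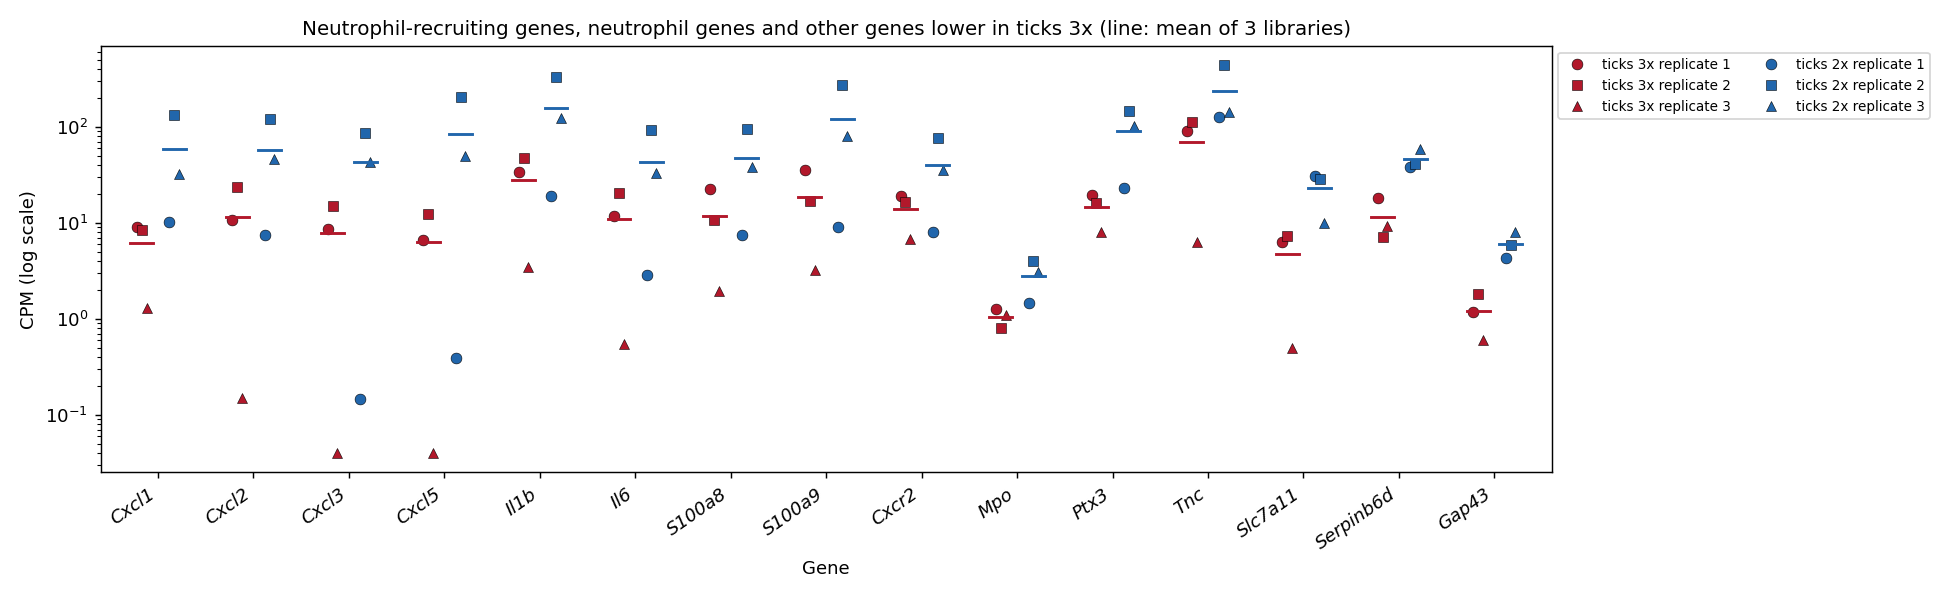
CPM on a log scale for neutrophil-recruiting genes, neutrophil genes and other genes that lay lower in ticks 3x, with 1 point per library, ticks 3x (red) left of ticks 2x (blue), and a line at the mean of 3 libraries. Values under 0.04 CPM are drawn at 0.04. From Cxcl1 to Cxcr2 the blue square and triangle (ticks 2x replicates 2 and 3) stand high and the blue circle (replicate 1) low.

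Monocyte chemokines and macrophage genes lay lower in sum, but this turned on a single library. Of 13 monocyte chemokines and receptors, 0 passed the test and 12 lay below 0 (median -0.68), with none free of overlap. Without ticks 3x replicate 3 the median was 0.12. Ccl8, a chemokine for monocytes and eosinophils, was at 612, 661 and 44.7 CPM in ticks 3x and 172, 990 and 740 CPM in ticks 2x. Of 21 tested macrophage genes 0 passed the test and 18 lay below 0 (median -0.29), and without ticks 3x replicate 3 the median was 0.15. Cd163, a scavenger receptor of resident macrophages, was at 597, 1020 and 179 CPM in ticks 3x and 142, 1207 and 722 CPM in ticks 2x. In both lists ticks 3x replicate 3 and ticks 2x replicate 1 were the low libraries.

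Lists for cells tied to acquired tick resistance had medians near 0, with members on both sides of it. The median log2 fold change was 0.07 for 15 tested basophil genes, -0.14 for 19 mast cell genes, -0.12 for 8 eosinophil genes and 0.02 for 23 T cell genes. None of these lists held a member without overlap or past the test. All 4 medians changed sign when single libraries were left out, with ranges of -0.29 to 0.34 for basophil, -0.52 to 0.25 for mast cell, -0.36 to 0.16 for eosinophil and -0.29 to 0.42 for T cell genes. Some members are made by other cells as well. In the basophil list these were Cebpa and Csf1, its most abundant members, and Il6, with its lowest log2 fold change (-1.62). In the T cell list Thy1 was such a gene. These medians therefore do not describe 1 cell type alone. Mcpt8, the basophil protease, was at 6.91 and 7.57 CPM and listed at 0 in ticks 3x, and at 0.0493, 6.18 and 5.15 CPM in ticks 2x. The mast cell chymase Mcpt4 was at 185, 130 and 74.1 CPM in ticks 3x and 133, 130 and 129 CPM in ticks 2x. Cpa3, mast cell carboxypeptidase, was at 170, 118 and 59.0 CPM in ticks 3x and 130, 138 and 104 CPM in ticks 2x. Cd4, the helper T cell coreceptor, was at 9.83, 6.03 and 0.946 CPM in ticks 3x and 1.77, 15.1 and 3.17 CPM in ticks 2x. The groups overlapped in each of these genes.

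Type 2 cytokines and alarmins, which drive mast cells, eosinophils and IgE, had 14 tested genes with 0 past the test and a median of 0.05, and 2 were higher without overlap, against 7.35% of all genes. Il31ra, a subunit of the receptor for the itch cytokine interleukin 31, was one of them, at 25.7, 27.1 and 20.5 CPM in ticks 3x and 6.02, 11.0 and 19.7 CPM in ticks 2x (log2 fold change 1.07, SE 0.39). Ticks 2x replicate 3 came close to ticks 3x. Il17rb, a receptor of interleukin 25, was the other, at 2.43, 3.79 and 2.49 CPM in ticks 3x and 2.41, 2.01 and 2.23 CPM in ticks 2x. Il4 was low, at 1.75 and 2.76 CPM and listed at 0 in ticks 3x, and at 0.246, 0.793 and 0.683 CPM in ticks 2x. Il13 did not reach the minimum level, with 1.22, 0.888 and 0.498 CPM in ticks 3x and 0.492, 0.845 and 0.435 CPM in ticks 2x.

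Interferon-stimulated genes lay evenly around 0, with 13 of 24 above it and a median of 0.04. Usp18 and Ifit3, 2 of 24, were higher without overlap, against 7.35% of all genes. Usp18, which restrains interferon receptor signalling, was at 12.3, 16.5 and 15.4 CPM in ticks 3x and 7.08, 12.2 and 12.2 CPM in ticks 2x. In the complement and coagulation list, 15 of 21 lay above 0 (median 0.12), and the complement genes C1s1 and C2, 2 of 21, were higher without overlap, again against 7.35%. C2, the second component, was at 40.3, 37.8 and 40.0 CPM in ticks 3x and 30.2, 25.9 and 30.0 CPM in ticks 2x (log2 fold change 0.45, SE 0.13). C1s1, the protease that cleaves it, was at 216, 236 and 172 CPM in ticks 3x and 136, 159 and 136 CPM in ticks 2x. No member of these lists passed the test.

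Lyve1, a hyaluronan receptor of lymphatic endothelium and of some macrophages, was at 47.7, 60.8 and 26.1 CPM in ticks 3x and 18.0, 18.6 and 18.6 CPM in ticks 2x (log2 fold change 1.16, SE 0.30). The ticks 2x libraries were almost equal and lay under all of ticks 3x. It alone among 8 lymphatic vessel genes was higher without overlap, against 7.35% of all genes (list median 0.44, 6 above 0, 0 past the test). Alas2, the first enzyme of haem synthesis in red cell precursors, was at 12.9, 14.6 and 13.05 CPM in ticks 3x and 6.78, 6.76 and 6.77 CPM in ticks 2x (log2 fold change 0.90, SE 0.15). Of 7 tested erythrocyte genes 6 lay above 0 (median 0.47) and 0 passed the test, and the alpha globin gene Hba-a1, named after its values were seen, overlapped, at 195, 236 and 284 CPM in ticks 3x and 109, 168 and 252 CPM in ticks 2x. The list means of log2(CPM + 1) were 3.87, 4.20 and 4.30 in ticks 3x and 4.03, 3.46 and 3.77 in ticks 2x, and the part of blood content in the Alas2 difference was not tested.

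The fibroblast and collagen list had 21 tested genes, 9 above 0 and a median of -0.03. Tnc, described above, was its 1 member without overlap, lower in ticks 3x, against 4.51% of all genes. The groups overlapped in the 4 genes that follow. Col1a1, the main dermal collagen, was at 3217, 2792 and 691 CPM in ticks 3x and 2635, 3245 and 2457 CPM in ticks 2x, lowest in ticks 3x replicate 3. Krt6a, a keratin of wounded epidermis, was at 419, 253 and 111 CPM in ticks 3x and 515, 234 and 91.7 CPM in ticks 2x. Cd207, or langerin, of Langerhans cells, was at 26.6, 23.6 and 21.5 CPM in ticks 3x and 6.69, 18.3 and 23.3 CPM in ticks 2x. Fos, an immediate early gene that responds to tissue handling, was at 1533, 1758 and 995 CPM in ticks 3x and 1222, 2248 and 782 CPM in ticks 2x. The test called none of these genes.

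**Figure D4:**
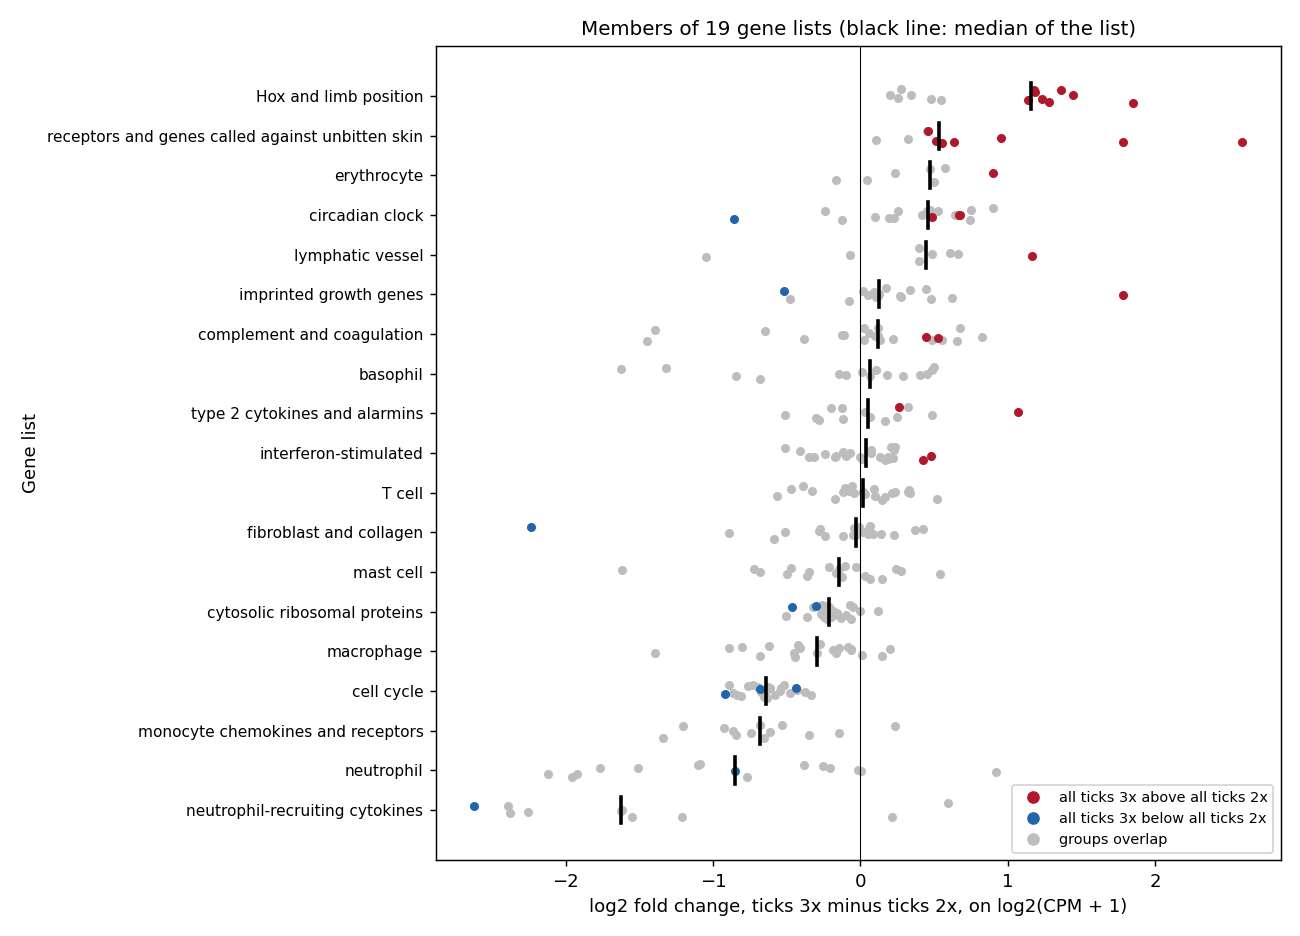
Log2 fold change, ticks 3x minus ticks 2x, of each tested member of 19 gene lists (points) and the list median (black line). Red and blue points are genes whose libraries do not overlap. Among the lists plotted, at the values shown, the Hox list has the highest median (1.16) and the neutrophil-recruiting cytokines the lowest (-1.62).

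Cell cycle genes, which mark dividing cells of the hair matrix, epidermis and immune infiltrate, all lay on the lower side. Of 24 tested, 24 were below 0 (median log2 fold change -0.64), 0 passed the test, and Cdk1, Birc5 and Tyms were lower without overlap, against 4.51% of all genes. Cdk1, the mitotic kinase, was at 10.6, 13.6 and 5.73 CPM in ticks 3x and 21.6, 19.4 and 15.6 CPM in ticks 2x (log2 fold change -0.92, SE 0.31). Birc5, or survivin, of the chromosomal passenger complex, was at 9.03, 12.1 and 5.91 CPM in ticks 3x and 16.1, 14.9 and 12.7 CPM in ticks 2x. Tyms, thymidylate synthase, was at 15.8, 16.8 and 11.7 CPM in ticks 3x and 20.8, 19.5 and 20.0 CPM in ticks 2x. Mki67, the proliferation antigen, named after its values were seen, overlapped, at 67.7, 108 and 34.9 CPM in ticks 3x and 193, 115 and 63.0 CPM in ticks 2x. The highest library, ticks 2x replicate 1, was also the one richest in hair shaft genes. The count without overlap was 13 without ticks 3x replicate 2, against 8.24% of all genes, and 23 without ticks 2x replicate 3, against 12.1%. The median was -0.35 without ticks 3x replicate 3 and -0.42 without ticks 2x replicate 1. With the hair shaft mean as covariate it was -0.66, with 24 of 24 below 0. Since that covariate averaged nearly the same in both groups, the fit could hardly move the median. The part of hair content was not tested. With both ticks 3x replicate 3 and ticks 2x replicate 1 left out, 17 of 24 lay below 0 and the median was -0.14.

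Cytosolic ribosomal protein genes had small differences on the same side. Of 32 tested, 31 lay below 0 (median -0.21), 0 passed the test, and Rps16 and Rpl18, 2 of 32, were lower without overlap, against 4.51% of all genes. Rpl18 was at 307, 251 and 245 CPM in ticks 3x and 363, 308 and 317 CPM in ticks 2x (log2 fold change -0.30, SE 0.15). The lower count without overlap was 18 without ticks 3x replicate 1, against 7.44% of all genes, and 26 without ticks 2x replicate 3, against 12.1%. It was 7 with median-of-ratios scaling, against 6.76%. The median was -0.13 without ticks 2x replicate 1 and -0.08 with both that library and ticks 3x replicate 3 left out. Rps12 showed no lean, at 64.8, 57.7 and 59.6 CPM in ticks 3x and 62.0, 66.8 and 54.2 CPM in ticks 2x.

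Clock genes had the opposite lean. The circadian clock is a loop in which Arntl and Clock switch on Per, Cry, Nr1d1 and Nr1d2, whose products repress them, and its genes in skin vary with the hour of sampling. Of 18 genes tested, 15 lay above 0 (median log2 fold change 0.46), 0 passed the test, and 3 were higher without overlap, against 7.35% of all genes. Nr1d1, the repressor REV-ERB alpha, was at 97.1, 111 and 112 CPM in ticks 3x and 43.3, 73.5 and 91.9 CPM in ticks 2x (log2 fold change 0.67, SE 0.28). Nr1d2, or REV-ERB beta, was at 94.8, 114 and 105 CPM in ticks 3x and 44.2, 75.8 and 82.3 CPM in ticks 2x. Ciart, another repressor of the loop, was at 3.55, 3.46 and 5.08 CPM in ticks 3x and 2.65, 2.59 and 2.42 CPM in ticks 2x. In each, all ticks 3x libraries lay above ticks 2x. Nfil3, a basic leucine zipper repressor that opposes the activators Dbp, Tef and Hlf, was the 1 member lower without overlap (4.51% of all genes), at 31.3, 38.5 and 32.4 CPM in ticks 3x and 69.4, 71.4 and 48.7 CPM in ticks 2x (log2 fold change -0.86, SE 0.19). Per3 and Dbp, named after their values were seen, overlapped. Per3 was at 19.8, 34.0 and 26.2 CPM in ticks 3x and 9.59, 11.7 and 21.7 CPM in ticks 2x. The count of higher genes was 10 without ticks 2x replicate 3, against 18.7% of all genes, and 8 without ticks 3x replicate 1, against 10.1%. It was 1 with quantile normalization, against 6.59%. The labels do not give the hour of sampling.

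Promoters of Ciart, Nr1d2, Nfil3 and Cdk1 are shown as examples, since these members of the clock and cell cycle lists lay apart between the groups and held a motif searched for. Nr1d1, Birc5 and Tyms, also without overlap, held 0 matches. Each window is the 250 bases before the transcript start used in a promoter table from RefSeq on GRCm38.p6, 5′ to 3′ on the gene's strand. For Nfil3 all of it, and for Ciart a small stretch, lies inside the annotated gene span. All 4 genes lie on the minus strand. Capitals mark, in the clock genes, the E-box CACGTG bound by the Arntl and Clock pair and the core AGGTCA bound by the ROR and REV-ERB receptors. In Cdk1 they mark the CCAAT box and the element TTTGAA found in cell cycle promoters. Both strands were searched, so a match may read as its reverse complement in capitals. Ciart lies at chr3:95882229-95882478, Nr1d2 at chr14:18239107-18239356, Nfil3 at chr13:52981040-52981289 and Cdk1 at chr10:69352913-69353162.
Ciart: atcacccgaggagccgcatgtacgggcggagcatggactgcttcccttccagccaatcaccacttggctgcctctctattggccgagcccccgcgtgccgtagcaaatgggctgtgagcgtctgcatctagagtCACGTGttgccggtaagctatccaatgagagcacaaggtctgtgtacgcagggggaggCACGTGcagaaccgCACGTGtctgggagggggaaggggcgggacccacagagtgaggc
Nr1d2: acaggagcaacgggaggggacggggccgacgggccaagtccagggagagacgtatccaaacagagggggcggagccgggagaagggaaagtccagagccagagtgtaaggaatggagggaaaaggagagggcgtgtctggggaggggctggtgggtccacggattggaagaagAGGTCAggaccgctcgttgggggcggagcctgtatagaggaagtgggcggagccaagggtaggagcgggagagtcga
Nfil3: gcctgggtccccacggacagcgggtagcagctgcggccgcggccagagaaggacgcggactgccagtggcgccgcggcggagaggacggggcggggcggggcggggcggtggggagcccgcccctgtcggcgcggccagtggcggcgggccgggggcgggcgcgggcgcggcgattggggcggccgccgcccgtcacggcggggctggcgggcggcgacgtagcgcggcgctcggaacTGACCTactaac
Cdk1: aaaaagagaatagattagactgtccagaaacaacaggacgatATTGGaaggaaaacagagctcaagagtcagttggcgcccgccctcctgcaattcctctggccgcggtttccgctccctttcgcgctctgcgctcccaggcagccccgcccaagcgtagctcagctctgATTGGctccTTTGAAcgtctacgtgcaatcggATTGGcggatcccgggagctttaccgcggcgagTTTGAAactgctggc

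Ciart held 3 E-boxes, Nr1d2 and Nfil3 held 1 AGGTCA core each, and Cdk1 held 3 CCAAT boxes and 2 TTTGAA elements. Of 32851 promoter windows of this length, 6.02% held CACGTG, 14% AGGTCA, 33.8% CCAAT and 16% TTTGAA. Promoters were in the table for 15 of 18 clock genes, of which 5 held CACGTG and 3 held AGGTCA. They were there for 21 of 24 cell cycle genes, of which 18 held CCAAT and 7 held TTTGAA. A match describes the letters only.

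**Figure D5:**
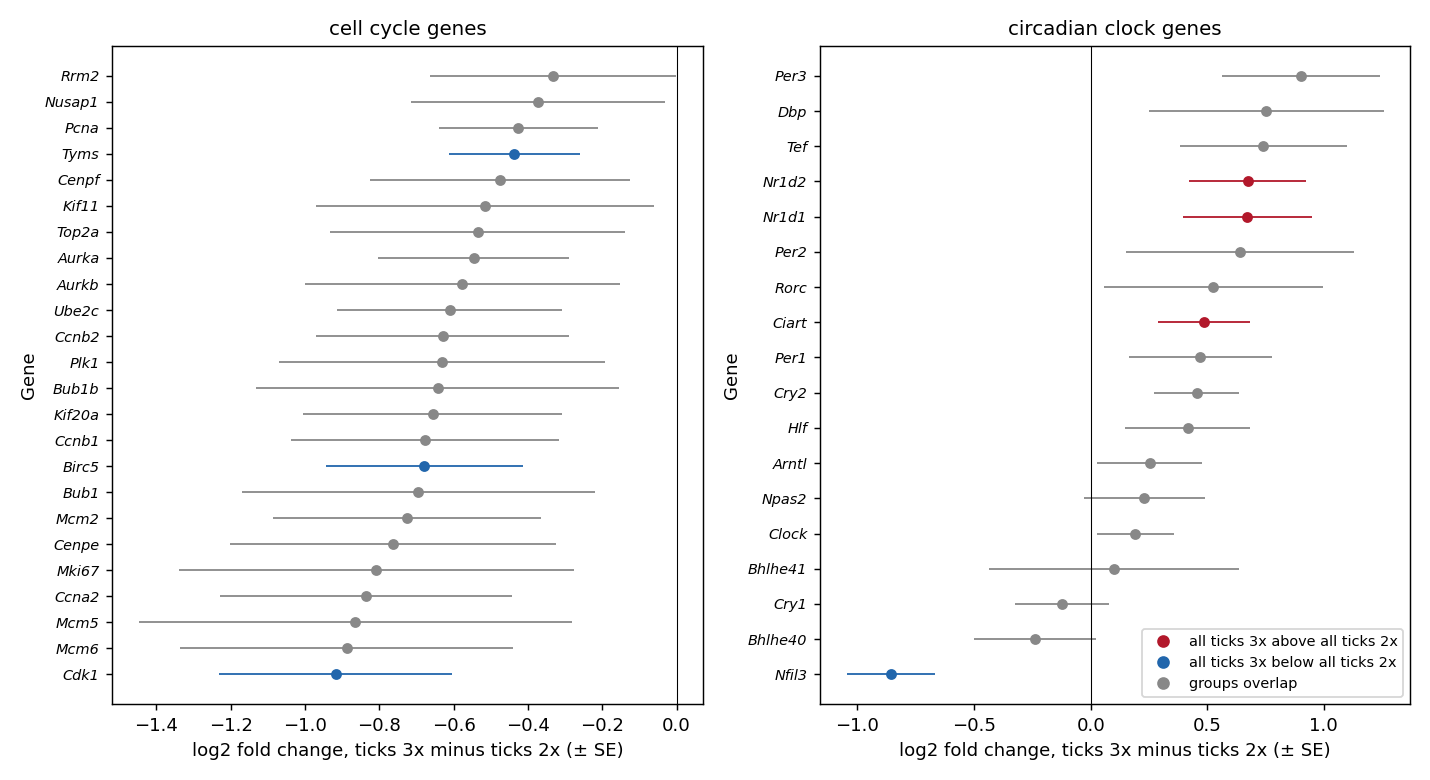
Log2 fold change, ticks 3x minus ticks 2x, with limma's standard error (bars), for 24 cell cycle genes (left) and 18 clock genes (right). All cell cycle points lie below 0 and 15 of 18 clock points above it, and colour marks the few genes whose libraries do not overlap.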

How the data were processed

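RNA was isolated from skin with a Qiagen kit and sequenced by standard Illumina protocols, per the labels' protocols. The submitters' processing notes name STAR, Partek 8.0.19 and GRCm38.p6; no source used here gives the counting program, its strand setting or the annotation. The authors deposited CPM, which counts reads of a gene for each M (mega) of library reads, as 12 columns of 25070 gene names, with 0.0001 added to every cell; a gene with only that value is described as listed at 0. Columns of the 6 libraries summed to 998572 to 998919 CPM. Of the names, 25 had been turned into dates and 2 recurred. CPM is not scaled by gene length, so levels were compared between libraries and not between genes.

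Depth was estimated from the CPM worth of 1 read. Of the values between 0.01 and 3 CPM, 77.6% to 79.4% were whole reads within 0.02, too few to recover counts, so no count test was run. The 50 most abundant genes held 17.2% to 25.4% of a library.

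The 3 ticks 3x and 3 ticks 2x libraries were compared with limma 3.58.1 (trend in the prior variance, 4 residual degrees of freedom) in R 4.3.3 on log2(CPM + 1), using genes that reached 1 CPM in 2 or more of them. Two-sided p-values were adjusted by Benjamini-Hochberg over 16198 genes, with calls below 0.05. Standard errors (SE) are limma's. The script was tested on simulated data with less spread between libraries than many genes named here had. That run checked the code, not the power to find differences in these libraries. Of all gene names, 22654 (90.4%) were found in RefSeq on GRCm38.p6, which gave coordinates and promoters.

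The comparison, the 43 lists (748 different genes, 670 tested) and the naming rule were chosen with earlier results of these data known, so lists are described by counts and medians and no list was tested. The rule named 68 genes: the 12 largest differences in each direction without overlap and with a mean of at least 5 CPM in the higher group, up to 4 members without overlap per described list or else the 2 most abundant, and a fixed set. Predicted and clone-named genes were left out. Genes outside the rule are marked in the text where their values are given, except Hoxd8, Hoxc13, Hoxa10, Csn3 and Krt18, also named after their values were seen.

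Alternatives were pseudocounts of 0.5 and 0.1, quantile normalization, median-of-ratios scaling, and no filter or one at 5 CPM. Further ones were fits with more groups (8 or 11 libraries), robust variance, array weights, a hair shaft covariate and leaving out each library. Leaving out both libraries at the ends of the first principal component was added after the data were seen. Figures were drawn with matplotlib 3.10.9 (Python 3.11.15, numpy 2.4.6, pandas 2.3.3).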

Additional observations from a re-analysis of the deposited data

How the results depend on the processing

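limma called 0 genes in each alternative run, and the smallest adjusted p of any gene lay between 0.28 (the fit with 8 libraries) and 0.997. With 1 library left out in turn, the genes without overlap were 1496 to 2988 higher and 1068 to 1942 lower in ticks 3x, where fewer libraries make separation easier. With both end libraries of the first component left out they were 4534 higher and 1857 lower. Of the 83 named genes followed through these runs, 67 kept their sign throughout and 16 did not, none of them without overlap in the main comparison. Hoxd8, Hoxc13, Mmp9, Hba-a1, Csn3 and Krt18 were not among the genes followed. With array weights the log2 fold change was 0.043 for Mrc1, 0.29 for Mcpt4, 0.18 for Cpa3, -0.013 for Il7r, 0.067 for Cd4 and -0.023 for Fos. With both end libraries left out it was 0.12 for Mrc1, 0.26 for Mcpt4, 0.24 for Cpa3, -0.0036 for Il7r, 0.093 for Cd4, 0.086 for Col1a1, 0.024 for Rps12 and 0.0054 for Mki67. It was -0.022 for Krt6a with median-of-ratios scaling, and 0.0044 for Cd163 and -0.12 for Krt14 with quantile normalization. With single libraries left out it ranged from -1.70 to 0.34 for Ccl8, -0.96 to 0.64 for Cd163, -0.65 to 0.71 for Mrc1, -0.077 to 0.81 for Csf1, -0.41 to 0.25 for Mcpt4, -0.55 to 0.20 for Cpa3, -0.59 to 0.0084 for Thy1, -0.29 to 0.68 for Il7r, -0.70 to 1.20 for Mcpt8, -0.63 to 0.64 for Cd4, -0.60 to 0.63 for Krt6a, -0.27 to 0.57 for Krt14, -0.99 to 0.12 for Col1a1, -0.25 to 0.51 for Fos and -0.085 to 0.064 for Rps12. The cause of these shifts was not tested. No paired analysis was possible because the labels give no numbers that link ticks 3x to ticks 2x libraries. Genes under the level of 3 reads in a group, such as Hoxa9 and Pgr in part, have fold changes set by the pseudocount.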

Other observations

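In the cornified envelope list 18 of 20 tested genes lay above 0, with a median log2 fold change of 0.42, and in the basal and suprabasal keratinocyte list 14 of 15 did, with a median of 0.18. Neither list held a gene past limma's test or without overlap. The cornified list means of log2(CPM + 1) were 6.94, 6.51 and 5.19 in ticks 3x and 6.65, 5.92 and 4.93 in ticks 2x. Without ticks 3x replicate 1 the cornified median was 0.10 with 11 of 19 above 0, and the keratinocyte median was 0.028 with 9 of 15 above 0. Skeletal muscle genes lay above 0 in 24 of 30 (median 1.01), with replicate 3 of both groups far above the other libraries. Their median ranged from 0.11 (without ticks 3x replicate 3) to 2.13 (without ticks 2x replicate 3), and it was -0.56, with 26 of 29 below 0, without both ticks 3x replicate 3 and ticks 2x replicate 1.

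Milk protein and simple epithelial keratin genes, which mark mammary gland, stood out in 1 library of each group. Csn3, kappa casein, was listed at 0 in ticks 3x replicate 1 and was at 0.701 and 9.16 CPM in replicates 2 and 3. In ticks 2x it was at 8.95 CPM in replicate 1, listed at 0 in replicate 2 and at 0.124 CPM in replicate 3. Krt18, a keratin of simple epithelia, was at 0.633, 2.38 and 13 CPM in ticks 3x and 12.5, 0.159 and 0.373 CPM in ticks 2x. The high libraries, ticks 3x replicate 3 and ticks 2x replicate 1, were also the ends of the first principal component. Over 7 tested genes of the mammary list, means of log2(CPM + 1) were 0.78, 1.13 and 2.76 in ticks 3x. They were 2.92, 0.53 and 0.52 in ticks 2x, 5.39 and 1.72 in naive skin, and 2.56, 2.23 and 0.71 in first exposure. High levels were thus not limited to these groups.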
